A study of Mus musculus with 2 samples.

Results

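The 6 genes described here encode antigen-receptor response factors: the orphan nuclear receptors Nr4a1 (Nur77), Nr4a2 (Nurr1) and Nr4a3 (Nor1), and the zinc-finger proteins Egr1, Egr2 and Egr3. They were chosen by symbol, 6 of the 32285 genes in both count matrices, and their UMI counts (unique molecular identifiers, 1 per captured transcript molecule) were compared across T, NK, B and myeloid cells gated on other marker genes. Antigen-receptor signalling through calcium and the MAP kinase pathway switches these genes on quickly and for a short time in lymphocytes. The Egr proteins bind GC-rich sites and help induce effector and anergy genes, while the Nr4a receptors act without a known natural ligand and, in tumour-infiltrating T cells under lasting stimulation, are part of the programme called exhaustion. Nr4a1 is also needed by a subset of monocytes, Egr1 and Egr2 take part in macrophage development, and tissue handling can induce Egr1 in many cell types.

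The cells were CD45+ DAPI- leukocytes sorted from B16-F0 melanoma, a transplantable mouse tumour, in wild-type (WT) mice and in knockout (KO) mice whose deleted gene the labels do not name, so no gene could be used to check the genotype. Each genotype held 1 droplet library of 3′ transcript ends. The labels call the cells TIL-Treg, but the stated sort takes every living leukocyte, and B, NK and myeloid cells made up much of both libraries. The age and strain of the mice, and whether animals were pooled, are not in the labels used here.

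With 1 library per genotype, no test between genotypes was possible, and genotype and library cannot be told apart. Every interval below is an exact 95% interval that covers counting error only. A gene is called higher or lower in the knockout library when its share of a gate's UMIs differed at least 1.5-fold, the interval excluded no difference, and both libraries together held at least 20 UMIs of it. Levels are given in CPM, the UMIs of a gene scaled to a common total for every gate and library. A 3′ count is not divided by gene length and genes differ in capture, so levels are compared between cell types for 1 gene and not between genes. In a sum over many cells, fewer cells using a gene and less RNA per cell cannot be told apart, so the share of cells with a UMI is given where a result turns on it.

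The wild-type library held 11153 cells after filtering and the knockout library 11131, with medians of 5191 and 6360 UMIs per cell. The gates found 2962 and 4585 T cells, 1150 and 2049 NK cells, 3502 and 422 B cells, and 1493 and 2170 myeloid cells, in the order wild-type then knockout, which holds throughout. Genes that the gates did not use marked each of them: Trac was at 475 and 465 CPM in T cells but at most 14.6 CPM in the other 3 gates. Haemoglobin transcripts of erythroid cells summed to 550 CPM in wild-type T cells and 1.68 CPM in knockout T cells, and immunoglobulin and other B-cell transcripts to 399 and 114 CPM. A single wild-type T cell held 82.7% of that library's Igkc UMIs in T cells, and Igkc was found in 19.2% and 24.7% of T cells. Their part in the members' values was not tested.

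The sequences upstream of a start site of each Nr4a gene are shown because the 3 promoters share a short element. RefSeq start sites on GRCm38.p6 were found for 4 of the 6 members, Nr4a1, Nr4a2, Nr4a3 and Egr2. The core of the cAMP response element, TGACG on either strand (CGTCA on the other), is the sequence bound by CREB-family factors that calcium and MAP kinase signals activate. It occurred in 17.8% of all 32851 promoters when the 250 bases before each start were searched, and 3 or more copies occurred in 0.688%. Each of the 3 Nr4a promoters held 4 copies. Capitals mark them in the sequences, which read 5′ to 3′ along the gene and hold no base of an exon of that gene in GENCODE M21. For Nr4a1, chr15:101266596-101266845 on the plus strand, and for Nr4a2, chr2:57124004-57124253 on the minus strand, the whole 250 bases are printed. For Nr4a3 the first 98 of these bases are printed, chr4:48045055-48045152 on the plus strand, and they hold 3 of its 4 copies.
Nr4a1: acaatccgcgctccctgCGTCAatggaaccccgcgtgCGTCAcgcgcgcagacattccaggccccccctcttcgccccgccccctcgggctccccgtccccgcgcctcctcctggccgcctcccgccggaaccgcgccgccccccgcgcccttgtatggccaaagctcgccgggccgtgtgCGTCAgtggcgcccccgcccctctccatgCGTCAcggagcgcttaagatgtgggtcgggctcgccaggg
Nr4a2: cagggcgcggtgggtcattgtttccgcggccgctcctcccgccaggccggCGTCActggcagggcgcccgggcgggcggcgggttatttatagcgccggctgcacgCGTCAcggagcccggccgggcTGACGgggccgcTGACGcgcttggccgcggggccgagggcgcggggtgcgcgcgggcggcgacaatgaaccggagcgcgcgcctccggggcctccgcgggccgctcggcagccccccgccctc
Nr4a3: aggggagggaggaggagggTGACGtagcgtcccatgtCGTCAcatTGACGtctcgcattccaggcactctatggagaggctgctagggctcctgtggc

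Egr2 has 5 start sites in RefSeq, and 3 of their windows, which overlap, hold the same 2 core elements together with a CArG box, the serum response factor site that is a known feature of Egr promoters. A CArG box occurred in 1.47% of all promoters searched the same way. The printed stretch, chr10:67537797-67537818 on the plus strand, holds the CArG box and 1 core element, both in capitals, and lies 72 to 51 bases before the first of these starts.
Egr2: CCATATATGGgcagcgaCGTCA

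The full palindromic element TGACGTCA, found in 1.55% of promoters, was in none of the member windows. These matches describe letters only and carry no evidence of binding in these cells. The Nr4a genes lie on 3 different chromosomes, Nr4a1 at 15:101254269-101274795, Nr4a2 at 2:57106830-57124003 and Nr4a3 at 4:48045153-48086447. Egr2 lies at 10:67535475-67542188, Egr3 at 14:70077203-70082614 and Egr1 on chromosome 18. The printed Nr4a1 window and Egr2 stretch lie inside these gene spans, ahead of start sites internal to the gene.

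The 6 genes did not mark the same cells. Among the 9 gates compared here, Nr4a2 and Nr4a3 were lowest in B cells, Egr3 was highest in B cells, Egr2 in monocytes and macrophages, Nr4a1 in monocytes, and Egr1 in conventional CD4 T cells and monocytes. These 9 gates do not overlap: CD8 T, conventional CD4 T, Ikzf2+Il2ra+ CD4 T, other T, NK, B, macrophage, conventional dendritic cell and monocyte. Conventional CD4 T cells are the CD4 T cells outside the Ikzf2+Il2ra+ gate that held no Foxp3 UMI.

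Nr4a1, the member most often used as a reporter of antigen-receptor signalling, stood at 148 CPM in wild-type monocytes and 119 CPM in knockout monocytes. In both libraries the monocyte interval lay above that of the next gate. Wild-type NK cells (56.4 CPM), dendritic cells (54.7), macrophages (49.2), other T cells (46.9), conventional CD4 T cells (45.8) and B cells (45) followed with overlapping intervals between neighbours. CD8 T cells were at 26.1 and 17.9 CPM and came last in the knockout library, while Ikzf2+Il2ra+ CD4 T cells came last in the wild-type library at 22.4 CPM and second in the knockout library at 59.9 CPM. An Nr4a1 UMI was found in 49.0% and 40.0% of monocytes and in 16.4% and 13.8% of CD8 T cells, and in thinned cells, each cut to 2000 UMIs, in 23.5% and 18.5% of monocytes and 5.28% and 4.01% of CD8 T cells.

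Nr4a2 reached 99.2 and 84.3 CPM in NK cells and 75.4 and 105 CPM in CD8 T cells, the 2 cytotoxic classes, and these 2 gates came first in both libraries. B cells came last, at 3.05 and 4.46 CPM. Nr4a2 in wild-type T cells was 18.8-fold its level in B cells (interval 13.6 to 26.6), and in wild-type NK cells 32.6-fold (23.5 to 46.5). An Nr4a2 UMI was found in 0.971% of wild-type B cells, at a median of 3328 UMIs, against 34.1% of NK cells at a median of 5184 UMIs. Whether the B-cell UMIs came from the B cells or from free RNA was not tested. In thinned cells the shares of wild-type B and NK cells with Nr4a2 were 0.436% and 16.4%.

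Nr4a3 was highest in wild-type dendritic cells (26.2 CPM) and NK cells (23.4 CPM), whose intervals overlapped. It was lowest in B cells, at 3.05 and 3.47 CPM. In the knockout library the first 3 places, with overlapping intervals, were taken by Ikzf2+Il2ra+ CD4 T cells (31.9 CPM), dendritic cells (28.9) and NK cells (27.5). NK cells held 1.87-fold as much Nr4a3 as T cells in the wild-type library (1.53 to 2.28) and 1.73-fold in the knockout library (1.5 to 1.99).

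Egr1, an immediate early gene, stood at 307 and 292 CPM in conventional CD4 T cells, above monocytes at 260 and 233 CPM, with separate intervals in both libraries. CD8 T cells held 47.5 and 53.5 CPM. The conventional CD4 level was 6.48-fold that of CD8 T cells in the wild-type library (5.83 to 7.19) and 5.45-fold in the knockout library (5.06 to 5.88). In thinned cells, 27.1% and 31.0% of conventional CD4 T cells held Egr1, and 9.05% and 10.7% of CD8 T cells. The few neutrophils, 106 and 25 cells, stood far above both, at 1324 and 1180 CPM. Among 22 immediate early genes that tissue dissociation can induce, the summed level was 6401 and 6003 CPM in conventional CD4 T cells and 3668 and 3462 CPM in CD8 T cells, so those genes were also higher in the CD4 gate. Their part in the Egr1 level was not tested.

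Egr2, known for restraint of T-cell activation and for macrophage programmes, was a myeloid transcript here. Monocytes held 40.2 and 58.8 CPM and macrophages 39.1 and 50.3 CPM, and every lymphocyte gate lay between 2.48 and 10.1 CPM. Among lymphocytes most neighbouring intervals overlapped.

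Egr3, the partner of Egr2 in limiting T-cell activation, stood at 30 and 27.2 CPM in B cells. Dendritic cells followed at 14.7 and 18.5 CPM, with an interval apart from that of B cells in the wild-type library and overlapping it in the knockout library. B cells exceeded T cells 5.45-fold in the wild-type library (4.44 to 6.73) and 4.15-fold in the knockout library (3.05 to 5.56). An Egr3 UMI was found in 7.74% of wild-type B cells and in 2.46% of wild-type T cells, although the T cells were sequenced deeper (median 5826 against 3328 UMIs). The neutrophil gate again stood apart, at 92.0 and 97.0 CPM, from 44 and 12 UMIs.

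**Figure D1:**
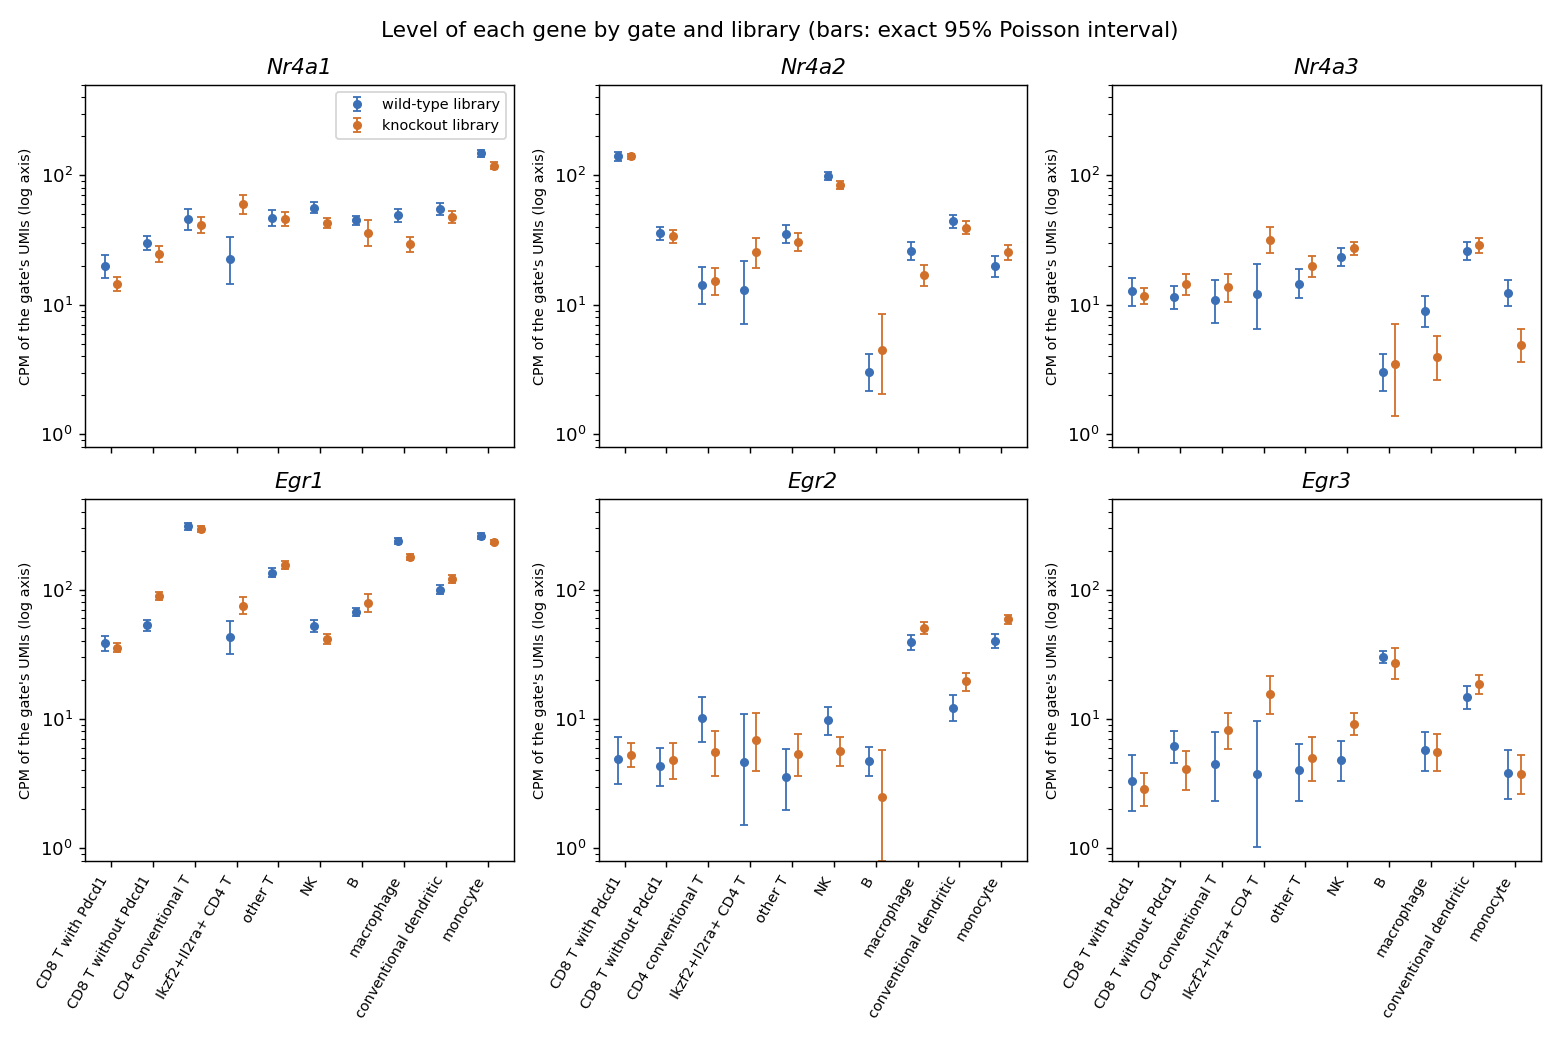
CPM of each member (log axis) in 10 gates that do not overlap, the 9 ordered gates with CD8 T split by Pdcd1, wild-type in blue and knockout in orange, bars giving the exact 95% Poisson interval for the counts. Nr4a2 drops to 3.05 and 4.46 CPM in B cells, where Egr3 is higher than in the other gates drawn, at 30 and 27.2 CPM, Egr2 stands out in macrophages and monocytes, and the clearest separation of the 2 libraries within T cells lies in the Ikzf2+Il2ra+ CD4 gate.

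In T cells as a whole, no member met the size rule in either direction, where 5.29% of the 13038 genes tested were higher and 4.25% lower. Nr4a2 came nearest, at 57.1 and 77.7 CPM (log2 ratio of knockout over wild-type 0.44, interval 0.35 to 0.54). Nr4a3 followed at 12.5 and 15.9 CPM (0.34, 0.14 to 0.55). The others were close to equal: Nr4a1 at 32.7 and 29.6 CPM, Egr1 at 96.8 and 102, Egr2 at 5.24 and 5.52, and Egr3 at 5.50 and 6.56. The T-cell mixture itself differed between the libraries, with 22.3% and 29.4% of T cells holding a Mki67 or Top2a UMI (cycling cells). Among non-cycling T cells Nr4a3 was higher in the knockout library, 12.9 and 20.2 CPM (0.66, 0.40 to 0.92), where 3.67% of 11915 genes were higher. Egr1 stood at 110 and 151 CPM in the same cells (0.45, 0.36 to 0.54), short of the rule. The Nr4a3 call held in 7 of 10 settings, but removing cycling cells could not change this gate. In cycling T cells no member was called, where 2.22% of 11865 genes were higher and 4.04% lower, and Nr4a2 stood at 83.9 and 106 CPM there against 40.6 and 42.5 CPM in non-cycling T cells. T cells without a CD4 or CD8 UMI had no called member either, where 3.02% of 10311 genes were higher and 2.00% lower.

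The CD4 T cells with UMIs of both Ikzf2 (Helios) and Il2ra (CD25), 2 genes of regulatory T cells (Treg), are where most members were called between the libraries. This gate did not use Foxp3 and held 76 and 168 cells at medians of 9952 and 10108 UMIs. Il2ra is itself induced by activation, and Foxp3, the defining regulatory T-cell factor, stood at 128 CPM in 63.2% of the wild-type cells but at 29.7 CPM in 29.2% of the knockout cells. Other Treg markers were alike: Ctla4 at 419 and 375 CPM and Tnfrsf18 (GITR) at 664 and 669 CPM. Foxp3 goes against the name Treg in the knockout cells, and the gate is called by its 2 genes.

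In this gate 5 of the 6 members were higher in the knockout library, where 3.46% of 8446 genes were higher and 2.19% lower. Nr4a1 went from 24 to 139 UMIs, 22.4 and 59.9 CPM, a log2 ratio of 1.42 (0.78 to 2.11). Nr4a3 went from 13 to 74 UMIs, 12.2 and 31.9 CPM, a log2 ratio of 1.39 (0.53 to 2.37). Egr3 went from 4 to 36 UMIs, 3.74 and 15.5 CPM, a log2 ratio of 2.05 with the wide interval that 4 UMIs give (0.57 to 4.0). Egr1 had 46 and 174 UMIs, 43.0 and 75.0 CPM (0.80, 0.33 to 1.30), and Nr4a2 had 14 and 59 UMIs, 13.1 and 25.4 CPM (0.96, 0.10 to 1.91). Egr2, with 5 and 16 UMIs, did not meet the rule (0.56, -0.95 to 2.36).

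The UMIs of these genes were concentrated in few cells, which makes the counting intervals too narrow. A single cell held 37.0% and 19.5% of the Egr1 UMIs, 38.5% and 12.2% of the Nr4a3 UMIs, 50% and 22.2% of the Egr3 UMIs and 12.5% and 11.5% of the Nr4a1 UMIs. The share of cells with a UMI differed less than the summed level. It was 23.7% and 25.0% for Nr4a1, 14.5% and 15.5% for Nr4a2, 6.58% and 16.1% for Nr4a3, 23.7% and 30.4% for Egr1 and 3.95% and 7.74% for Egr3. All 5 pairs of intervals overlapped. After thinning to 2000 UMIs, which 75 and 166 cells reached, Nr4a3 was found in 1.33% (0.0338 to 7.21) and 6.02% (2.93 to 10.8) of cells and Egr1 in 4.0% (0.833 to 11.2) and 11.4% (7.03 to 17.3).

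**Figure D2:**
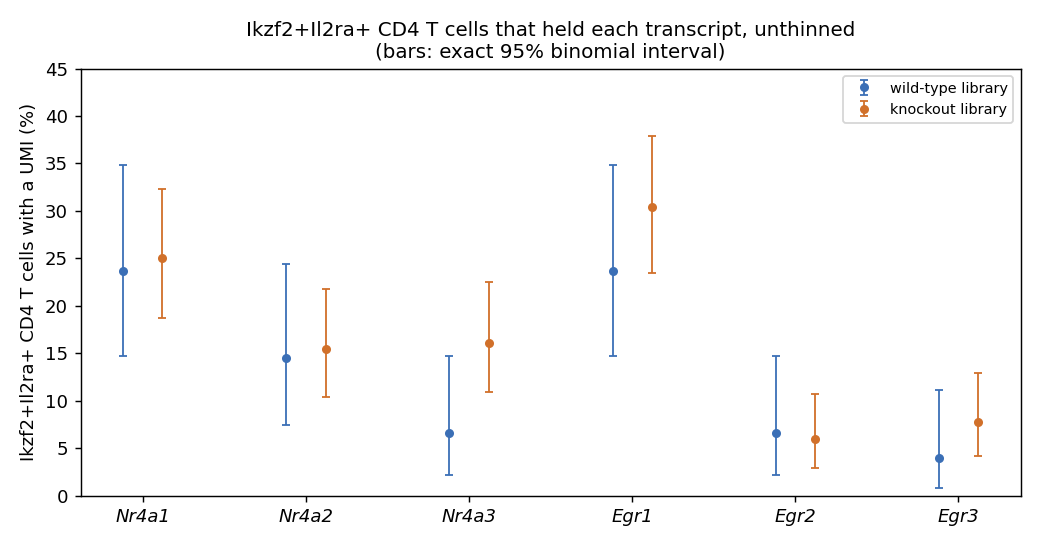
Share of Ikzf2+Il2ra+ CD4 T cells with at least 1 UMI of each member (76 wild-type cells in blue, 168 knockout cells in orange), bars giving the exact 95% binomial interval. The intervals of the 2 libraries overlap for every member, the widest gap in share being that of Nr4a3 at 6.58% and 16.1%.

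Of the 12 settings reported here, Nr4a1 was called in 12, with log2 ratios of 0.93 to 1.56, Egr1 in 12 (0.70 to 2.22), Nr4a3 in 11 and Nr4a2 in 9. Dropping the filter on low counts could not change a call already made, and mean CPM per cell was judged on the fold alone. Egr3 was called in 8 of the 9 that held enough UMIs. The number of members called was 2 in thinned cells, where Nr4a2 turned to -0.15, and 3 without cycling cells. The share of all genes called was not computed in those settings. When CD4 T cells were gated on a Foxp3 UMI instead, 84 and 92 cells, the ratios were 0.93 for Nr4a1 (0.24 to 1.65), 1.81 for Nr4a2 (0.82 to 2.91), 1.08 for Nr4a3 (0.10 to 2.14) and 2.10 for Egr1 (1.56 to 2.68). Of these cells, 48 and 49 were also in the Ikzf2+Il2ra+ gate, so the 2 gates share many cells. In the Foxp3 gate a single knockout cell held 28.6% of the Nr4a1, 30% of the Nr4a3 and 21.4% of the Egr1 UMIs. The shares of cells with a UMI were 22.6% and 23.9% for Nr4a1 and 10.7% and 20.7% for Nr4a2. They were 5.95% and 9.78% for Nr4a3 and 22.6% and 42.4% for Egr1. The knockout cells were deeper, at medians of 6597 and 8496 UMIs. In thinned cells Egr1 was found in 4.76% (1.31 to 11.7) and 18.2% (10.8 to 27.8). Against conventional CD4 T cells of the same library, Ikzf2+Il2ra+ cells held 0.490-fold as much Nr4a1 in the wild-type library (0.302 to 0.763) and 1.45-fold in the knockout library (1.16 to 1.80). For Nr4a3 these folds were 1.12 (0.532 to 2.21) and 2.33 (1.65 to 3.29).

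Of 19 other early response genes of the T-cell receptor that could be tested in this gate, 6 were higher and 1 lower, with a median log2 ratio of 0.37 beside 0.03 for all genes tested. The chemokine Ccl4 had 40 and 613 UMIs (log2 ratio 2.82, 2.36 to 3.32), but 1 cell held 35.0% and 38.2% of them, and the shares of cells with a UMI were 21.1% and 25.0%. Xcl1 had 2 and 59 UMIs (3.77, 1.85 to 6.84), 40.7% of the latter in 1 cell. Ccl3 had 31 and 174 UMIs (1.37), while the share of cells holding it was 17.1% and 11.9%. Ifng had 22 and 117 UMIs (1.29), in 18.4% and 26.2% of cells. The inhibitory receptors Pdcd1 (0.91, 0.53 to 1.31) and Lag3 (0.94, 0.36 to 1.57) were the 2 called higher among 10 tested genes of the Nr4a partner and exhaustion list, and 1 was lower. Among 10 tested Egr partner and anergy genes, Lag3 alone was higher and none was lower. None of 13 upstream signalling genes of the receptor was called (median -0.04). The dissociation list summed to 4188 and 4538 CPM, with 1 of 21 genes higher, Hspa1b. The myeloid transcripts summed to 408 and 243 CPM and the B-cell transcripts to 235 and 138 CPM, and the cycling share was 55.3% and 53.0%.

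Nr4a2 in CD8 T cells was compared with and without a UMI of Pdcd1, which encodes the inhibitory receptor PD-1. Over all CD8 T cells, 1465 and 2179 cells, Nr4a2 stood at 75.4 and 105 CPM (0.47, 0.37 to 0.58). In the cells with a Pdcd1 UMI it stood at 140 CPM in both libraries (0.00, -0.12 to 0.12), and in the cells without at 35.6 and 33.8 CPM (-0.07, -0.31 to 0.17). The cells with Pdcd1 numbered 290 and 867, 19.8% and 39.8% of CD8 T cells. Without cycling cells, the ratio in the cells with Pdcd1 was -0.35 (-0.60 to -0.08). The class with Pdcd1 held 3.93-fold (3.43 to 4.51) and 4.14-fold (3.65 to 4.7) as much Nr4a2 as the class without. What the Pdcd1 share and cycling contribute to the difference over all CD8 T cells was not tested. Cells with a Pdcd1 UMI were also deeper, with medians of 13431 and 14839 UMIs against 6391 and 5757. In thinned cells the Nr4a2 share was still 21.1% and 22.4% with Pdcd1 and 6.76% and 6.07% without, above 0.436% and 0.725% in B cells. Of the cells with Pdcd1, 59.3% and 62.6% were cycling.

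**Figure D3:**
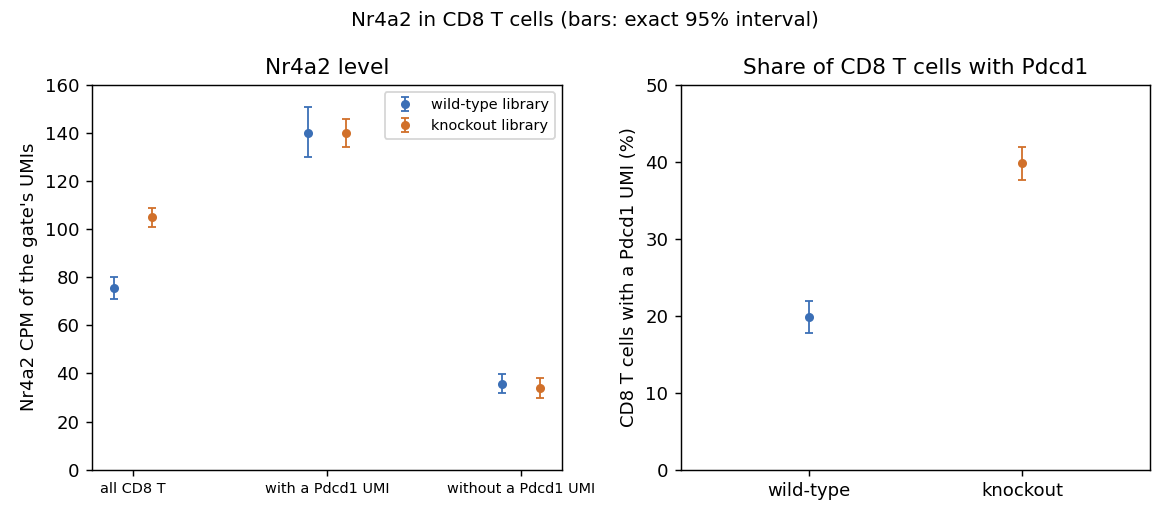
Left, Nr4a2 CPM in all CD8 T cells and in those with and without a Pdcd1 UMI, and right, the share of CD8 T cells with a Pdcd1 UMI, wild-type in blue and knockout in orange with exact 95% intervals. The libraries differ over all CD8 T cells (75.4 and 105 CPM) and in the Pdcd1 share (19.8% and 39.8%) but coincide at 140 CPM within the cells with Pdcd1.

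The other members split differently on Pdcd1. The Nr4a1 CPM was 0.664-fold (0.522 to 0.839) and 0.583-fold (0.482 to 0.706) as high in CD8 T cells with Pdcd1 as in those without. The Egr1 CPM was likewise lower with Pdcd1, 0.724-fold (0.609 to 0.858) and 0.399-fold (0.357 to 0.445). A CPM is a share of UMIs, and the cells with Pdcd1 were deeper. More of them held Nr4a1 in both libraries (wild-type 19.7% against 15.6%) and Egr1 (31.7% and 29.6% against 20.6% and 24.2%). In thinned cells fewer did: 3.46% and 2.54% against 5.73% and 4.99% for Nr4a1, 6.23% and 7.62% against 9.75% and 12.8% for Egr1. The Nr4a3 intervals of the 2 libraries both included equality. Nr4a2 was the single member whose interval lay above equality in the Pdcd1 class in both libraries. The split uses 1 UMI of Pdcd1, so the class without it also holds cells in which Pdcd1 was missed.

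Between the libraries, Egr3 was the member of the CD8 gate that met the rule, lower at 5.06 and 3.28 CPM (-0.62, -1.10 to -0.14), where 7.01% of 12060 genes were higher and 4.74% lower. It kept the call in 6 of 10 settings. Nr4a1 stood at 26.1 and 17.9 CPM (-0.54, -0.75 to -0.34), just short of the fold. In CD8 T cells without Pdcd1, Egr1 was higher in the knockout library at 53.0 and 89.3 CPM (0.75, 0.58 to 0.92), with 20.6% and 24.2% of cells holding it, where 3.23% of 10779 genes were higher and 1.82% lower. The call held in 9 of 10 settings and not in thinned cells (0.52). In CD8 T cells with Pdcd1, Egr1 was at 38.4 and 35.6 CPM and no member was called, where 1.54% of 11149 genes were higher and 3.13% lower. The dissociation list summed to 4049 and 4392 CPM in the cells without Pdcd1 and haemoglobin transcripts to 534 and 2.64 CPM, 98.5% of the wild-type Hbb-bs UMIs lying in 1 cell. Their part in the Egr1 ratio was not tested.

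The wider lists in CD8 T cells had 5 of 24 early response genes higher and 1 lower (median 0.21, all genes 0.09). The costimulatory receptors Tnfrsf9 (74.6 and 151 CPM, 1.02) and Tnfrsf4 (59.1 and 117 CPM, 0.99) and the cytokines Il2 (0.95) and Ifng (0.67) were among those higher. Of 11 tested exhaustion genes, Pdcd1 (0.89), Tox (0.71) and Lag3 (0.61) were higher and none was lower. Within CD8 T cells with Pdcd1, none of the 11 was called (median -0.11, all genes 0.02).

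In conventional CD4 T cells, 506 and 891 cells, Egr2 was lower in the knockout library, 27 UMIs in each and 10.1 and 5.51 CPM (-0.88, -1.70 to -0.05), where 5.51% of 9777 genes were higher and 2.22% lower. The call held in 6 of 10 settings. Egr1 hardly differed at 307 and 292 CPM (-0.08, -0.20 to 0.05), and Egr3 stood at 4.51 and 8.17 CPM with 35.0% of the knockout UMIs in 1 cell. Among 11 exhaustion genes tested there, 6 were higher and none lower (median 0.81), Lag3 (1.73), Pdcd1 (1.19) and Ctla4 (1.00) among them, while the 3 Nr4a genes had ratios of -0.14, 0.10 and 0.33 and no call. This gate leaves out cells with a Foxp3 UMI, and Foxp3 itself stood at 19.3 and 5.91 CPM over all T cells. Tnfrsf18 stood at 218 and 363 CPM in the gate. Whether the gate holds the same kinds of cells in both libraries was not tested.

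In NK cells, which lack a rearranged antigen receptor but signal through related activating receptors, 2 Egr genes moved in opposite directions. Egr3 was higher in the knockout library at 4.80 and 9.19 CPM (0.94, 0.35 to 1.56) and Egr2 lower at 9.76 and 5.66 CPM (-0.78, -1.31 to -0.26), where 2.36% of 10930 genes were higher and 1.58% lower. Single cells held 21.9% and 21.2% of the Egr3 UMIs, and 1.74% and 2.00% of NK cells held any. Egr3 kept the call in 10 of 10 settings, including without the top cell, and Egr2 in 9 of 10. Nr4a1 stood at 56.4 and 42.9 CPM (-0.40, -0.60 to -0.20), found in 21.4% and 13.7% of cells. Nr4a2 (99.2 and 84.3 CPM) and Egr1 (52.2 and 41.5 CPM) also stayed short of the rule. Haemoglobin transcripts summed to 710 and 3.06 CPM in NK cells, and their part was not tested.

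B cells carried no called member, where 5.18% of 10542 genes were higher and 8.68% lower and the median of all genes was -0.18. Egr3 stood at 30 and 27.2 CPM (-0.14, -0.57 to 0.27), Egr1 at 67.2 and 78.8 CPM (0.23, -0.03 to 0.47) and Nr4a1 at 45 and 36.2 CPM (-0.31, -0.69 to 0.04). The 422 knockout B cells limit these ratios. Egr3 was lower by the rule among thinned cells (-0.79) and with a stricter mitochondrial limit (-0.66).

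**Figure D4:**
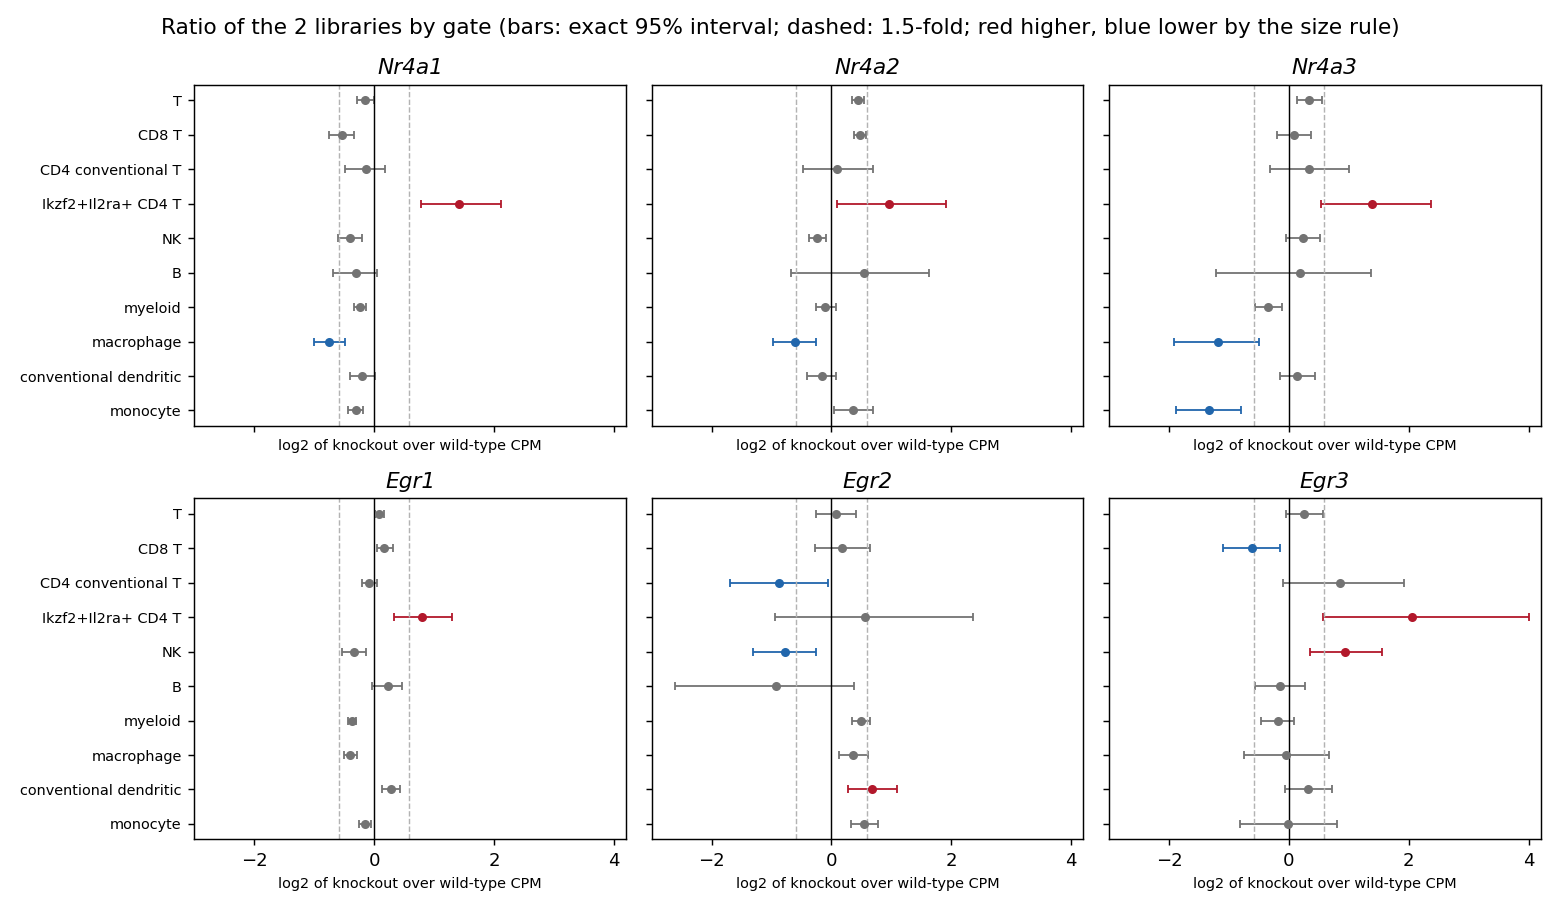
Log2 ratio of knockout over wild-type CPM for each member in 10 gates, bars giving the exact 95% interval, dashed lines the 1.5-fold size, red for higher and blue for lower by the size rule. The red points gather in the Ikzf2+Il2ra+ row, 5 of 6 members, and the blue Nr4a points in the macrophage and monocyte rows (the T row contains the 3 T gates below it, and the myeloid row the 3 myeloid gates below it).

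Myeloid cells as a whole had no called member, where 2.22% of 12527 genes were higher and 4.91% lower. Egr1 stood at 240 and 186 CPM (-0.37, -0.43 to -0.31) and Egr2 at 30.9 and 43.5 CPM (0.49, 0.35 to 0.64). The Egr1 ratio was -0.92 in thinned cells, in which every cell counts equally. The neutrophils, with their high Egr1, numbered 106 and 25, and their part in this ratio was not tested. In the neutrophil gate itself Nr4a1 was higher at 132 and 226 CPM (0.78, 0.08 to 1.44), from 63 and 28 UMIs, where 9.99% of 3522 genes were higher and 8.66% lower, and the 25 knockout cells held no UMI of Nr4a2 or Nr4a3, which at their median depth of 3054 UMIs limits only the share of cells with a captured UMI (up to 13.7%) and not the share expressing the gene. Myeloid cells that met no subset gate, 69 and 35 cells, held Egr1 at 1362 and 164 CPM (-3.05, -3.61 to -2.54) and Nr4a3 at 24.4 and 77.1 CPM (1.66, 0.23 to 3.30), where 14.5% of 2744 genes were higher and 14.9% lower. Neutrophil transcripts summed to 10109 and 174 CPM and haemoglobin transcripts to 102 and 18293 CPM in those cells, and their part was not tested.

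In macrophages, C1q-positive cells numbering 298 and 422, all 3 Nr4a genes were lower in the knockout library, where 2.52% of 10773 genes were higher and 4.80% lower. Nr4a1 stood at 49.2 and 29.3 CPM (-0.75, -1.01 to -0.48), found in 34.6% and 24.6% of cells. Nr4a3 stood at 8.99 and 3.96 CPM (-1.18, -1.91 to -0.49) from 55 and 27 UMIs, of which 1 cell held 25.5% and 33.3%. Nr4a2 stood at 26.0 and 17.0 CPM (-0.61, -0.97 to -0.26), a call present in 5 of 10 settings and turned to 0.36 in thinned cells. None of the 3 calls held without cycling cells (30.2% and 23.9% of macrophages), where the ratios were -0.58 for Nr4a1, -0.10 for Nr4a2 and -0.36 for Nr4a3. Nr4a1 was also not called by mean CPM per cell (-0.51), and Nr4a3 not in thinned cells. Egr1 was at 236 and 178 CPM and Egr2 at 39.1 and 50.3 CPM, neither called. The neutrophil transcripts summed to 19.9 and 90.6 CPM in these cells and the dissociation list to 8332 and 8472 CPM, with none of its 22 genes called.

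In monocytes, 608 and 1084 cells, Nr4a3 alone was called, lower at 12.4 and 4.92 CPM (-1.33, -1.89 to -0.79), where 3.45% of 10602 genes were higher and 4.53% lower. It was rare, in 3.62% and 2.58% of cells, and 1 cell held 26.7% and 21.3% of its UMIs. Requiring 3 marker UMIs for a lineage brought the ratio to -0.47 (-1.11 to 0.17). Nr4a1 was at 148 and 119 CPM (-0.31, -0.44 to -0.19), and Egr2 at 40.2 and 58.8 CPM (0.55, 0.33 to 0.77), neither called. Conventional dendritic cells held Egr2 at 12.2 and 19.5 CPM, higher in the knockout library (0.67, 0.27 to 1.09), where 2.80% of 10875 genes were higher and 3.48% lower. Egr2 was found in 9.71% and 14.2% of those cells and kept the call in 9 of 10 settings. Nr4a3 in the same cells was at 26.2 and 28.9 CPM (0.14, -0.15 to 0.44).

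For some pairs, 1 member was found in a larger share of the cells with the other member than of the cells without it, and for others it was not. Among T cells thinned to 2000 UMIs, Egr1 was present in 22.3% (16.6 to 29.0) of wild-type cells with Nr4a1 and in 13.3% of those without. In the knockout library these shares were 32.8% (27.2 to 38.8) and 15.4%. Conventional CD4 T cells held more than CD8 T cells of both Egr1 (6.48- and 5.45-fold) and Nr4a1 (1.76- and 2.31-fold). The part of this mixture of T cells in the shares was not tested. Cells with Egr3 held Egr1 in 52.0% (31.3 to 72.2) and 32.5% (18.6 to 49.1) of cases, against 13.6% and 16.3% of cells without Egr3. Egr1 was in 20.3% of wild-type T cells with Nr4a3 and 13.8% of those without, with no such excess in the knockout library. Nr4a1 was found in 14.1% and 19.2% of T cells with Nr4a3 and in 6.23% and 5.52% of those without. For Nr4a2 the pairs differed. It was in 12.5% and 23.3% of T cells with Nr4a3, against 6.82% and 7.87% without, and in 12.2% and 7.92% of those with Nr4a1, against 6.58% and 8.30% without. With Egr1 there was no excess: 5.87% and 5.53% of T cells with Egr1 held it, and 7.12% and 8.82% of those without. Conventional CD4 T cells hold much Egr1 and little Nr4a2 and CD8 T cells the opposite. Within CD8 T cells the Nr4a2 shares with and without Egr1 were 9.09% and 9.65% (wild-type) and 10.3% and 12.9% (knockout). In B cells, Egr1 was found in 20.2% (14.5 to 27.0) of wild-type cells with Egr3 and 6.15% without. Most T cells showed no member at this depth: 26.4% and 29.7% held at least 1, 4.22% and 4.57% at least 2, and 0.545% and 0.644% at least 3. These are shares of cells within 1 library each and carry no test.

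**Figure D5:**
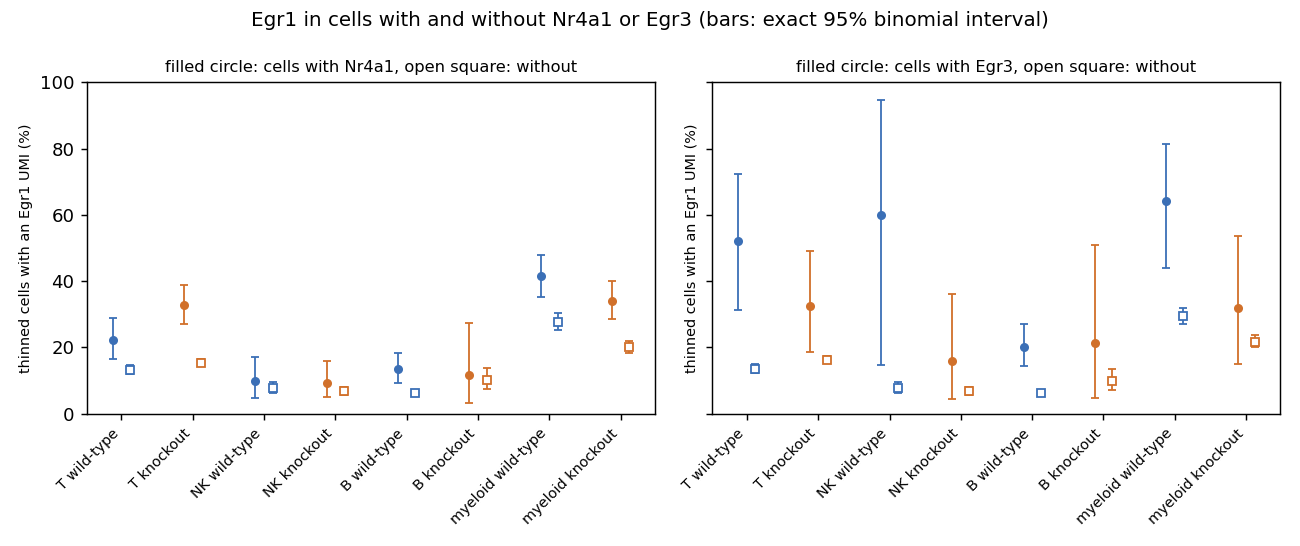
Share of cells thinned to 2000 UMIs with an Egr1 UMI among cells with (filled circles) and without (open squares) Nr4a1, left, or Egr3, right, by lineage and library, with exact 95% binomial intervals. In T cells the filled points lie above the open ones in both libraries (22.3% and 13.3%, 32.8% and 15.4% for Nr4a1), while in NK cells the Nr4a1 pair overlaps. The T points mix CD4, CD8 and other T cells.

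Across 32 points, the gates of each library with at least 50 cells, log2(CPM + 1) of Nr4a1 followed Egr1 (Pearson r 0.71) and Egr2 (0.71) but ran against Nr4a2 (-0.45). Nr4a3 had its highest r among members with Nr4a2 (0.43), and Egr3 with Egr1 (0.51). Points share libraries and some gates contain others, so these values are a description. Of 8224 genes, those most like Egr2 were Atp6v1e1 (0.98) and Atp6v1b2 (0.98), subunits of the proton pump of lysosomes, and Lilrb4a (0.97), an inhibitory receptor. Those most like Nr4a1 were Zfp622 (0.88), Zfand3 (0.88) and Kdm6b (0.87), a histone demethylase. Those most like Nr4a3 were Traf1 (0.80), a signalling adaptor of TNF receptors, Tes (0.76) and Mob3a (0.75). Egr1 was most like 1810013L24Rik (0.95), Cited2 (0.89) and Il23a (0.89), and Egr3 most like Tbc1d15 (0.84), 4933434E20Rik (0.77) and Gm39321 (0.77). Nr4a2 was most like Gm36723 (0.86), Gatad2a (0.84) and the serpin family gene Serpinb9b (0.83).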

How the data were processed

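The values are raw UMI counts, deposited by the authors as 1 gene by barcode matrix for each library. Cell Ranger 5.0.0 made them per the file headers, and STAR and mm10 are named per the submitters' processing notes. The annotation release was not given in the sources used here. Cells with at least 500 genes, 1000 UMIs and at most 10% mitochondrial UMIs were kept. The libraries shared 42 barcodes. A lineage needed 2 marker UMIs and at most 1 UMI, or a 0.1 share, of any other lineage's markers. Of 12 myeloid markers set, 11 were used. Cells with markers of 2 lineages and plasmacytoid cells were set aside, and no other doublets were removed. Scrublet (scanpy 1.11.5) removal of the top 8% of scores was an alternative. Counts were summed per gate and library. Ratio intervals are exact binomial and level intervals exact Poisson (scipy 1.17.1). The ratio and interval steps were checked on simulated data. Members, gates and 12 gene lists were chosen with earlier results of these data known. Named were the members in every gate, at most 4 genes per list and gate past the size rule with at least 50 UMIs, and the 3 genes most like each member among those with at least 20 CPM in a gate. Alternatives changed marker, mitochondrial and cycling limits, scaling, thinning and the Ikzf2+Il2ra+ CD4 gate. Every count of settings includes dropping the filter on low counts, which could not change a call already made. Counting cells with T and NK markers as T could not change the B and myeloid gates. Removing cycling cells could not change the non-cycling T gate. Each also includes mean CPM per cell, which was judged on the fold alone, with no interval. A further split of the T cells and 1 further form of the Ikzf2+Il2ra+ CD4 gate are not reported here, and the counts of settings leave that gate out.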

Additional observations from a re-analysis of the deposited data

Results flagged for a closer look

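Some members met the size rule as higher in 1 gate and as lower in another. Nr4a1 had a log2 ratio of knockout over wild-type of 1.42 in Ikzf2+Il2ra+ CD4 T cells and -0.75 in macrophages. Nr4a2 had 0.96 and -0.61 in the same gates. Nr4a3 had 1.39 in Ikzf2+Il2ra+ CD4 T cells, -1.18 in macrophages and -1.33 in monocytes. Egr2 was higher in conventional dendritic cells (0.67) and lower in conventional CD4 T cells (-0.88) and NK cells (-0.78). Egr3 was higher in Ikzf2+Il2ra+ CD4 T cells (2.05) and NK cells (0.94) and lower in CD8 T cells (-0.62). With 1 library per genotype, the difference between gates was not tested for any of them.

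Cells that met no lineage gate, 168 and 154 of them, lay outside every comparison and held Egr1 at 1137 CPM in the wild-type library (620 UMIs) and 494 CPM in the knockout library (229 UMIs), against 140 and 123 CPM over all kept cells.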

How the results depend on the processing

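Counts of called members are given as main value, then alternative. The share of all genes called was computed in the main setting only, so the alternative counts have no such share to be set beside. Without cycling cells, higher members went from 0 to 1 in T cells, from 0 to 2 in CD8 T cells, from 0 to 1 in conventional CD4 T cells and from 5 to 3 in Ikzf2+Il2ra+ CD4 T cells; lower members went from 1 to 0 in CD8 and in conventional CD4 T cells. The 3 Nr4a calls in macrophages were lost in the same setting. In cells thinned to 2000 UMIs, higher members went from 0 to 1 in CD8 T cells and from 5 to 2 in Ikzf2+Il2ra+ CD4 T cells; lower members went from 1 to 0 in CD8, conventional CD4 T and NK cells, from 0 to 1 in B cells and from 0 to 2 in myeloid cells. Thinning turned Nr4a2 to -0.15 in Ikzf2+Il2ra+ CD4 T cells and to 0.36 in macrophages. With T and NK marker cells counted as T, 1 member was higher in conventional CD4 T cells and 0 were lower in CD8 T cells. At most 5% mitochondrial UMIs left 0 lower in CD8 and conventional CD4 T cells and gave 1 lower in B cells. Requiring 3 marker UMIs left 0 lower in conventional CD4 T cells, and median-of-ratios scaling gave 2 lower in CD8 T cells. Means of CPM per cell gave 1 higher in B cells and 2 lower in myeloid cells. An Ikzf2+Il2ra+ gate that also required Foxp3 was chosen after seeing the data. The cause was not tested. The other 122 of 144 counts stayed within 1.5 times, among them counts that a setting could not change. Of 789 single ratios, 726 stayed within their main interval, 61 fell outside it, and 2 called in the main setting changed sign. A change of sign was counted only for ratios called in the main setting. No paired analysis was possible because each genotype held 1 library, and for the same reason no replicate could be left out. Thinning keeps few UMIs of Egr2, Egr3 and Nr4a3, so differences in those genes were often not detectable at that depth.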

Other observations

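Cells left out of the gates also held members. In the plasmacytoid cells set aside, 288 and 129 cells, Egr1 stood at 104 and 95.7 CPM, Nr4a1 at 27.0 and 15.4 CPM and Nr4a2 at 30.4 and 13.1 CPM. In the 282 and 489 cells with markers of both T and NK cells, Nr4a2 stood at 79.6 and 70.7 CPM, between its wild-type levels in CD8 T and NK cells and below both in the knockout library. Nr4a1 in these cells was at 52.9 and 30.5 CPM and Nr4a3 at 22.5 and 20.7 CPM.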
